A study of Mus musculus with 6 samples.

Results

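The Ms4a genes of mouse form a cluster on chromosome 19, and 6 of them, Ms4a4a, Ms4a6b, Ms4a6c, Ms4a6d, Ms4a7 and Ms4a4c, were followed here in J774 cells after depletion of NCOA4. They were chosen by their transcript abundance per length (TPM) in these same libraries, control siRNA against NCOA4 siRNA, so their differences between the groups are given as a description with no test. The annotation (GENCODE M21, GRCm38) holds 19 genes named Ms4a, all of them on chromosome 19 between positions 10962293 and 11640851, a stretch of 679 kb. The 6 members are thus 6 of 19 family genes and 6 of 55487 genes in the expression files.

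MS4A proteins pass the membrane several times, like tetraspanins, and sit beside other receptors at the cell surface. The best known are MS4A1 (CD20) of B cells and MS4A2, the beta chain of the high-affinity IgE receptor of mast cells. Several of the Ms4a4, Ms4a6 and Ms4a7 genes are used by macrophages and other myeloid cells, though not all of them, since Ms4a4b is a gene of T cells. MS4A4A is found on macrophages exposed to IL-4 or glucocorticoids and can associate with the beta-glucan receptor dectin-1, and variants at the human MS4A locus are linked to the level of soluble TREM2.

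J774 is a mouse macrophage cell line, kept here as clone E. NCOA4 delivers ferritin to lysosomes for iron release, and its depletion asks how macrophages respond when ferritin turnover is restricted. Cells received control siRNA (siControl, 3 biological replicates) or a single siRNA against Ncoa4 (siNCOA4, 3 biological replicates) by liposomes, and their polyadenylated RNA was sequenced in stranded libraries. Reads on genes, rebuilt from the TPM values, numbered between 15502131 and 18282107 per library. Ncoa4 itself (ENSMUSG00000056234) had 21.6 ± 1.57 TPM (SD, n = 3) in siControl and 9.04 ± 0.533 TPM (SD, n = 3) in siNCOA4, that is 41.9% of the control level, a log2 difference of -1.21 (SE 0.0768, limma adjusted p = 0.00127), with every siNCOA4 library below every siControl library.

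Macrophage genes were present in every library. All 10 macrophage markers examined were above 0 TPM, with a summed level of 8757 to 8930 TPM in siControl and 9087 to 9184 TPM in siNCOA4, and 2 of them rose, Adgre1 (log2 difference 0.61, limma adjusted p = 0.0248) and the Fc receptor gene Fcgr1 (0.59, adjusted p = 0.00436). Over all 13829 tested genes 0.861% were called as higher. By log2 difference 8 of the 10 markers were above 0 and 2 below. Mertk (0.48, adjusted p = 0.00965) and Csf1r (0.31, adjusted p = 0.0218) were higher with a fold change under 1.5. The 2 below 0, Cd14 (-0.27, adjusted p = 0.0361) and Cd68 (-0.22, adjusted p = 0.178), had lower TPM in every siNCOA4 library than in any siControl library. Their fold change was also under 1.5. Mertk, Csf1r, Cd14 and Cd68 were named here after their values were seen. Neither Adgre1 nor Fcgr1 was called after median centring or without siControl replicate 1. Adgre1 was not called without any one of the siNCOA4 replicates either, nor with no filter, without the trend or with the replicate number as a block. It was called in 7 of 15 alternatives. The part of Adgre1 and Fcgr1 in the Ms4a values was not tested. Markers of T cells (2 of 5 above 0, summed level at most 0.167 TPM), mast cells (1 of 5, at most 0.328 TPM), fibroblasts (2 of 4, at most 0.0265 TPM) and epithelium (1 of 3, at most 0.150 TPM) were at or near 0, with Cd3e, Trac, Kit, Fcer1a, Dcn and Krt8, and the B cell gene Pax5, at 0 in every library. The B cell genes Cd79a and Cd79b reached at most 0.340 and 0.402 TPM. Neutrophil markers (2 of 5 above 0) summed to 18.99 to 25.37 TPM in siControl and 15.5 to 20.4 TPM in siNCOA4, most of it from S100a8, with S100a9 and Mpo at 0. One library stood apart from its group. The rebuilt reads of siControl replicate 1 differed from those of replicates 2 and 3 by a chi-square of 10.8 and 10.9 per gene, where 1 is counting noise, against 3.42 between replicates 2 and 3 and 1.91 to 2.27 among the siNCOA4 replicates, so values are also given without it. In bulk RNA from a culture, fewer cells with a transcript and less of the transcript per cell cannot be told apart.

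Of 13829 genes with a mean of at least 0.5 TPM, 1.18% were called between siNCOA4 and siControl (limma, a fold change past 1.5 at an adjusted p below 0.05), 0.861% as higher and 0.318% as lower. Groups that did not overlap were more common, at 28.4% of the 13829 genes, with every siNCOA4 library above every siControl library in 16.6% of the 13829. Among the 6 members, 4 had siNCOA4 libraries that all lay above all siControl libraries (Ms4a6d, Ms4a6c, Ms4a6b and Ms4a4a), and 2 overlapped (Ms4a7 and Ms4a4c). Since the members were selected on this contrast, nothing is read from that count. Ms4a4c was below the 0.5 TPM mean and did not enter the fit, and Ms4a4a and Ms4a7 entered it only through their siNCOA4 values, their siControl means being below 0.5 TPM. The number of called genes, 163, was 77 without siNCOA4 replicate 2, 86 without siNCOA4 replicate 1 and 98 without siNCOA4 replicate 3.

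**Figure D1:**
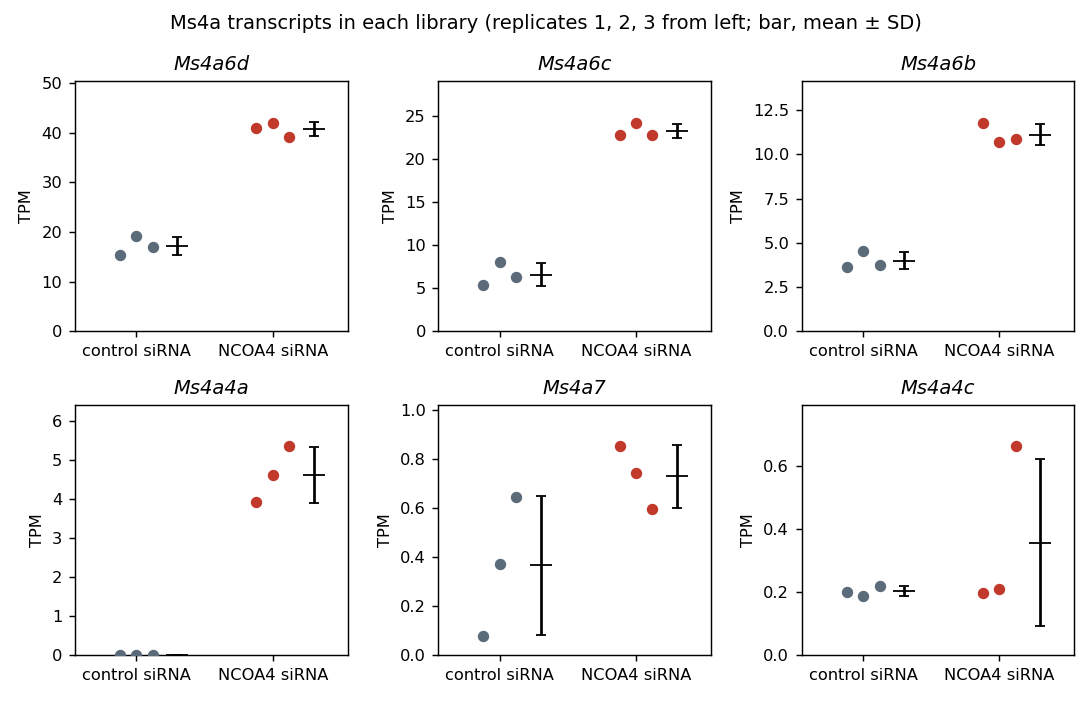
TPM (linear axis from 0, its own scale per gene) of the 6 Ms4a members in each library, as points for control siRNA (grey) and NCOA4 siRNA (red), 3 libraries each, with bars for the group mean ± SD. Ms4a6d, Ms4a6c, Ms4a6b and Ms4a4a separate the groups completely, whereas Ms4a7 and Ms4a4c overlap.

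The Ms4a6 genes, close paralogs expressed by monocytes and macrophages, carried nearly all Ms4a transcripts of these cells. Ms4a6d (ENSMUSG00000024679, chr19:11586604-11604849, minus strand), whose protein has been found with the complement receptor VSIG4, was the most abundant. Its level was 15.4, 19.1 and 17.0 TPM in siControl replicates 1 to 3 and 41.0, 42.0 and 39.2 TPM in siNCOA4 replicates 1 to 3. The lowest siNCOA4 library held more than double the TPM of the highest siControl library. The group means were 17.2 ± 1.88 and 40.7 ± 1.44 TPM (SD, n = 3 each), a log2 difference of 1.23 on the log2(TPM + 0.5) scale, and 1.15 without siControl replicate 1.

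Ms4a6c (ENSMUSG00000079419, chr19:11469366-11482192, plus strand) showed the widest log2 difference of the 3 Ms4a6 genes, though not the widest in TPM, which was that of Ms4a6d. It had 5.35, 8.05 and 6.27 TPM in siControl and 22.8, 24.2 and 22.7 TPM in siNCOA4. The siNCOA4 libraries lay close together (coefficient of variation 3.57%), and the siControl libraries were more spread (20.9%), with replicate 1 lowest. The means were 6.56 ± 1.37 and 23.2 ± 0.830 TPM (SD, n = 3 each), a log2 difference of 1.77, and 1.64 without siControl replicate 1.

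Ms4a6b (ENSMUSG00000024677, chr19:11516512-11531256, plus strand) was the least abundant of the Ms4a6 genes per length. Its values were 3.65, 4.52 and 3.76 TPM in siControl and 11.8, 10.7 and 10.9 TPM in siNCOA4, again with a wide gap between the groups. The means were 3.98 ± 0.476 and 11.1 ± 0.578 TPM (SD, n = 3 each), a log2 difference of 1.38, and 1.33 without siControl replicate 1. Because its transcript model is long, these levels rested on 88 to 123 reads per library in siControl and 262 to 307 in siNCOA4, more than for Ms4a6c (63 to 100 and 270 to 281) in each siControl library.

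Ms4a6b and Ms4a6c, which are next to each other in the family's order on the same strand, also share sequence just before their starts, and the 250 bases upstream of each start are shown for that reason (RefSeq, GRCm38.p6, plus strand, 5′ to 3′). The RefSeq start used for Ms4a6b lies inside the gene span given above from GENCODE M21. Capitals mark the stretches of 20 or more bases that both hold, 72 of 250 bases in each.

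Ms4a6c, chr19:11469118-11469367: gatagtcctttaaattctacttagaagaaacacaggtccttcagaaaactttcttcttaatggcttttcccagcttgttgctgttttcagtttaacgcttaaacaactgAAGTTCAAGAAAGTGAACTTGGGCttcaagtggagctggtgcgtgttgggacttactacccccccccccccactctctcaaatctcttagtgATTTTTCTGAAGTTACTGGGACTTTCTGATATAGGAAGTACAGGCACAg

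Ms4a6b, chr19:11518309-11518558: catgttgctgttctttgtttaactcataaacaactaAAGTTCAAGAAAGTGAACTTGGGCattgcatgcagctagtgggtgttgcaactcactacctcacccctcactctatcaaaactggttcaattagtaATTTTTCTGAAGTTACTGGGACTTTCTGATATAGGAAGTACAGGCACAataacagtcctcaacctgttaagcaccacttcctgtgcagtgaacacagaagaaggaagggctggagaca

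The longest stretch in common was 48 bases long and began 49 bases before the start in Ms4a6c and 118 bases before it in Ms4a6b. The 170 pairs of Ms4a promoters compared came from 19 RefSeq windows of 18 genes, which include Ms4a19, a name not among the 19 of GENCODE M21. Among these pairs the next longest stretch, between Ms4a4c and Ms4a4b, was 20 bases, and the median was 8 bases. Reads can also be shared between such paralogs, which makes the split uncertain for a read that lies within a shared stretch. Of the 50-base stretches of each gene's transcripts, 5.85% for Ms4a6c, 3.44% for Ms4a6b and 2.31% for Ms4a6d occur in another Ms4a gene, and of the 150-base stretches none does.

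Ms4a4a (ENSMUSG00000101389, chr19:11375523-11392790, plus strand), the family member known as a marker of alternatively activated macrophages, was read in the siNCOA4 libraries and in no siControl library. It had 0, 0 and 0 reads in siControl and 19, 21 and 27 reads in siNCOA4, which gave 0 TPM in all siControl libraries and 3.91, 4.61 and 5.35 TPM in siNCOA4. The exact 95% Poisson intervals of the siNCOA4 reads were 11.4 to 29.7, 13.0 to 32.1 and 17.8 to 39.3, and 0 reads allow up to 3.69, which covers counting error only. The mean of 4.62 ± 0.720 TPM (SD, n = 3) in siNCOA4 was at least 7.28-fold higher than a floor of 3 reads in each siControl library, which equals 0.592 to 0.688 TPM. The fitted log2 difference of 3.35 follows from the pseudocount and is no bound. None of its 50-base stretches occurs in another Ms4a gene. Ms4a4a had only 1 annotated transcript, of 836 bases, so its level rests on few reads.

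The window before the Ms4a4a start is shown because it held, of 9 motifs searched, a match to the kappa B motif (GGGA, any 2 bases, then TTCC, in capitals), which occurs in 1.21% of 32851 RefSeq promoter windows and in no other member's window. It is the 250 bases upstream of the start in RefSeq, GRCm38.p6, plus strand, 5′ to 3′.

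Ms4a4a, chr19:11375238-11375487: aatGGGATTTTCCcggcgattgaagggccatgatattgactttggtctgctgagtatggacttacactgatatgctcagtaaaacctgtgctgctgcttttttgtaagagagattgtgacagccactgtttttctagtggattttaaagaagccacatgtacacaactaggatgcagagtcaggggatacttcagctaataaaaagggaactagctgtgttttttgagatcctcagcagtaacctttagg

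Windows of the 250 bases before each start were searched on both strands, and windows were used for 5 of the 6 members, all but Ms4a6d. Ms4a7 had windows for starts 1 and 2, so the members had 6 windows, and the background shares are per window. The ETS motif GGAAGT, the core bound by the macrophage factor PU.1, was found in windows of Ms4a7, Ms4a4c, Ms4a6c and Ms4a6b, against 19.7% of all windows and 9 of the 19 windows of Ms4a genes. In Ms4a6c and Ms4a6b the plus-strand match, 16 and 85 bases before the start, lay in the 48-base stretch that both hold, so these are not separate finds. Ms4a6b also had a minus-strand match 43 bases before its start. The AP-1 motif TGANTCA (6.75% of all windows) and the steroid receptor motif ACANNNTGT (5.84%) were each found before Ms4a7 alone among the members. They lay in different windows, AP-1 before start 2 and the steroid receptor motif, like the ETS motif of Ms4a7, before start 1. The interferon response motif (GAAA, any 2 bases, then GAAA, 2.98%), the STAT motif TTCNNNGAA (7.02%), the C/EBP motif TTGCNNAA (9.56%), the E-box CACGTG (6.02%) and TATAAA (12.4%) had no match in a member's window. The letters searched overlap in part, and a match describes the sequence and not a bound site.

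Ms4a7 (ENSMUSG00000024672, chr19:11321039-11336146, minus strand), expressed by tissue macrophages and microglia, was low in both groups. Its values were 0.0782, 0.371 and 0.646 TPM in siControl, from 2, 10 and 15 reads, and 0.851, 0.742 and 0.595 TPM in siNCOA4, from 22, 18 and 16 reads. The groups overlapped, since siControl replicate 3 lay above siNCOA4 replicate 3. The means were 0.365 ± 0.284 and 0.729 ± 0.128 TPM (SD, n = 3 each), a log2 difference of 0.56 that dropped to 0.29 without siControl replicate 1, the library with 2 reads.

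Ms4a4c (ENSMUSG00000024675, chr19:11404770-11427246, plus strand), a myeloid gene of the family that interferons can induce, was close to the limit of detection. It had 2, 2 and 2 reads in siControl and 2, 2 and 7 reads in siNCOA4, or 0.199, 0.189 and 0.219 TPM against 0.197, 0.210 and 0.662 TPM. One library, siNCOA4 replicate 3, stood above the others, and the other siNCOA4 libraries lay within the siControl range, so no difference between the groups was detectable at this depth. Of its 50-base stretches, 8.19% occur in another Ms4a gene, mostly Ms4a4b.

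The other 13 genes named Ms4a in GENCODE M21, which include Ms4a1 and Ms4a2, were nearly silent and none reached the 0.5 TPM mean. In 8 of them no library had a read, and the other 5 had 1 to 4 reads at most in a library. Of these 5, Ms4a14 had 0, 0 and 0 reads in siControl and 3, 1 and 3 in siNCOA4, and Ms4a4b, a gene of T cells, had 0, 1 and 0 reads in siControl and 2, 1 and 4 in siNCOA4. Both are too near the floor of 3 reads for a fold change.

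**Figure D2:**
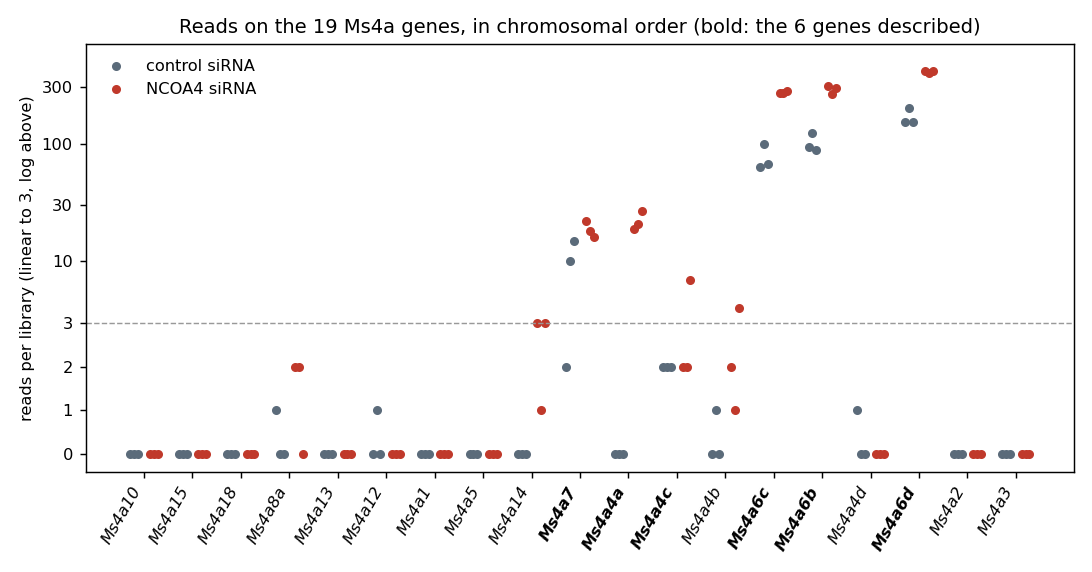
Rebuilt reads per library (axis linear up to 3 reads, marked by the dashed line, and log above) on the 19 Ms4a genes in the order of chromosome 19, with 1 point per library, grey for control siRNA and red for NCOA4 siRNA. The reads gather in the Ms4a6 genes, Ms4a4a has 0 reads in every siControl library and 19 to 27 in siNCOA4, and 8 genes have none in any library.

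The summed level of the 19 Ms4a genes was 24.9, 32.4 and 27.9 TPM in siControl and 80.9, 82.7 and 79.6 TPM in siNCOA4, with 99.2% to 100% of it from the 6 members. The means, 28.4 ± 3.78 and 81.0 ± 1.60 TPM (SD, n = 3 each), differed by a ratio of 2.86. Per length, the order in siControl was Ms4a6d, Ms4a6c, Ms4a6b, Ms4a7, Ms4a4c and Ms4a4a, and in siNCOA4 Ms4a4a moved up to the place after Ms4a6b. Neighbours in these orders did not overlap between libraries of a group except Ms4a7 and Ms4a4c, whose ranges overlapped in both groups. The makeup of the sum also differed. Ms4a6d made up 60.6% ± 1.40 of it in siControl and 50.2% ± 0.867 in siNCOA4 (SD, n = 3 each), whereas Ms4a4a went from 0% to 5.71% ± 0.952. The TPM ratio of Ms4a6c to Ms4a6d was 0.349, 0.421 and 0.368 in siControl and 0.555, 0.576 and 0.580 in siNCOA4, with no overlap, so in fold terms Ms4a6c differed by more than Ms4a6d did.

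**Figure D3:**
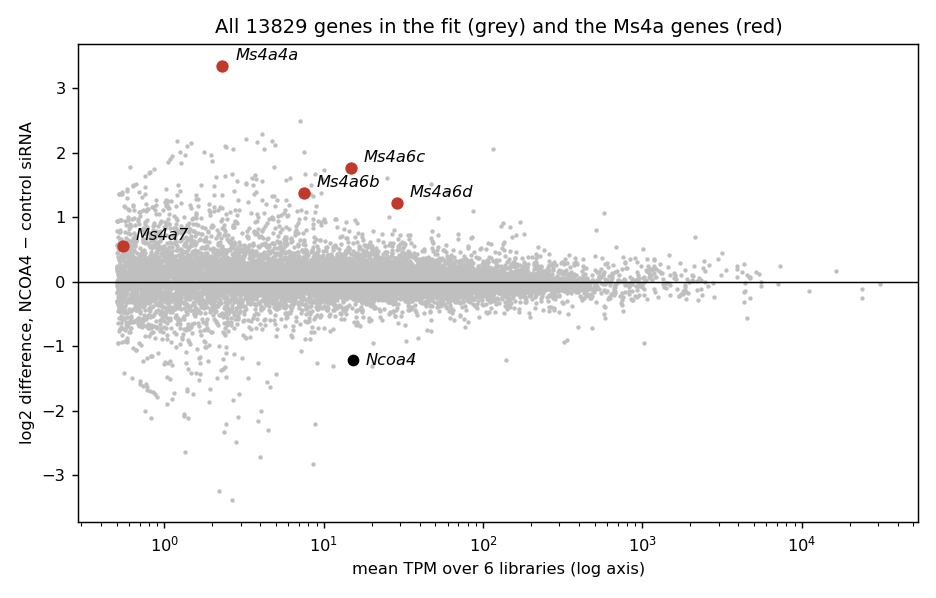
Log2 difference (siNCOA4 minus siControl, log2(TPM + 0.5) scale) of 13829 genes against mean TPM (log axis), with the 5 members in the fit in red and Ncoa4 in black. Ms4a6c, Ms4a6b and Ms4a6d lie in the upper part at 1.77, 1.38 and 1.23, Ms4a7 at 0.56, and the height of Ms4a4a, with 0 reads in siControl, depends on the pseudocount.

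As a description of genes picked on this contrast, by log2 difference Ms4a6c ranked 28, Ms4a6b ranked 69, Ms4a6d ranked 99 and Ms4a7 ranked 588 of the 13829 genes. As levels, the Ms4a6 genes also changed places among all tested genes. Ms4a6d lay at percentile 51.0 of TPM in siControl and 71.3 in siNCOA4, Ms4a6c at 31.8 and 57.4, and Ms4a6b at 24.7 and 40.3. Across the 6 libraries the Ms4a6 genes followed each other (Pearson r of 0.999 for Ms4a6c and Ms4a6d, 0.996 for Ms4a6b and Ms4a6d, 0.995 for Ms4a6b and Ms4a6c), which for 6 libraries in 2 groups mainly restates the gap between the groups. After removal of the group means the r was 0.974, 0.810 and 0.815. These values come from the same libraries and carry no p.

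A mean standardised profile was taken over the 5 members in the fit, each with equal weight, so it rests in part on Ms4a4a and Ms4a7, which had few reads. Their own r with the profile was 0.972 and 0.808, against 0.985 to 0.993 for the Ms4a6 genes. After removal of the group means it was -0.218 for Ms4a4a, 0.919 for Ms4a7 and 0.597 to 0.844 for the Ms4a6 genes. Ms4a7 had 2 reads in siControl replicate 1. The other genes most like the profile over the 6 libraries were Sesn1, Abca9, Ehd4, Fcgr1 and 2410002F23Rik, with r from 0.997 to 0.999. After removal of the group means their r was 0.938 to 0.993, and each of them was lowest in siControl replicate 1. Sesn1, a stress-induced sestrin, had 26.1 ± 2.88 TPM in siControl and 43.4 ± 0.641 TPM in siNCOA4, and Abca9, a lipid transporter gene, 4.10 ± 0.719 and 12.5 ± 0.271 TPM (SD, n = 3 each). Such a profile was common, since 417 of 13824 other genes had an r of 0.95 or more. The next gene in that order was Slc40a1, which encodes the iron exporter ferroportin, at 13.5 ± 0.859 and 18.5 ± 0.264 TPM, named here after its values were seen.

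No gene around the cluster was called. Within 1 Mb of the Ms4a genes, or between them, lie 70 other protein-coding genes, of which 28 were tested. By limma 0 of them passed (7 of 28 had an unadjusted p under 0.05, against 21.6% of all 13829 genes), 14 had a log2 difference above 0 and 14 below, the median was 0.01 and the range -0.28 to 0.42. By limma-voom on the rebuilt reads 0 of 27 passed. Rab3il1, the gene at 0.42, had no whole rebuilt reads and was not in that test. The closest tested genes before the cluster were Ccdc86 at 13.0 kb (log2 difference 0.18, adjusted p = 0.257) and Prpf19 at 52.7 kb (0.03), and those after it were Mrpl16 at 129.5 kb (0.11) and Stx3 at 134.3 kb (-0.23, adjusted p = 0.124). Only Rab3il1 (0.42, adjusted p = 0.0188) and the ferritin heavy chain gene Fth1 (3053 ± 56.9 TPM in siControl and 2597 ± 6.77 TPM in siNCOA4, log2 difference -0.23, adjusted p = 0.0257) had an adjusted p under 0.05, both with a fold change under 1.5, and both are named after their values were seen.

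**Figure D4:**
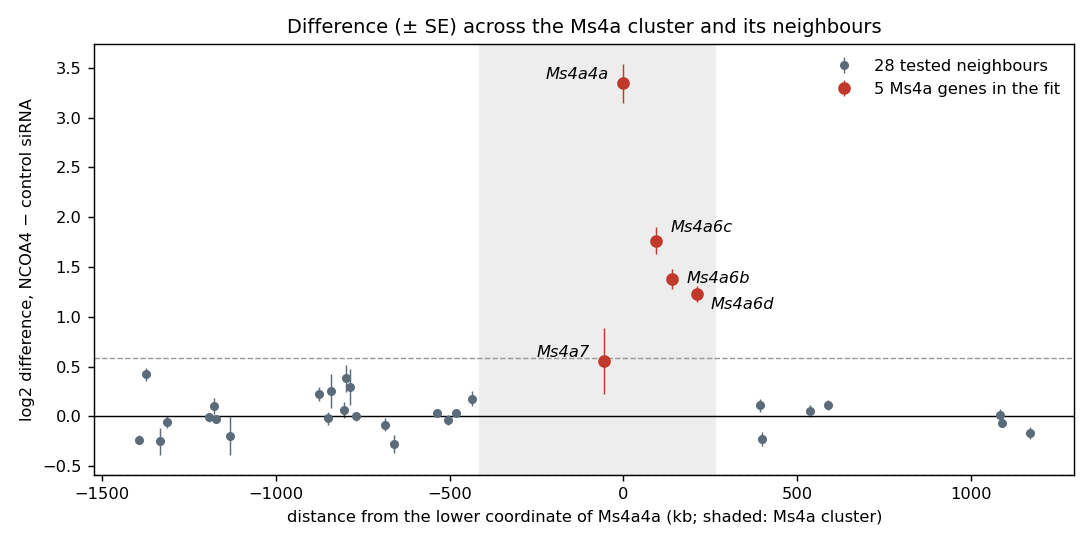
Log2 difference (siNCOA4 minus siControl) of the 28 tested neighbours (grey) and the 5 members in the fit (red) against distance in kb from the lower coordinate of Ms4a4a, with error bars of 1 standard error, the cluster shaded and the 1.5-fold threshold dashed. The neighbours lie between -0.28 and 0.42, and Ms4a6b, Ms4a6c and Ms4a6d between 1.23 and 1.77, while the height of Ms4a4a depends on the pseudocount.

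Outside the cluster, the closest relatives of the Ms4a proteins are encoded by Tmem176a and Tmem176b, tetraspan genes of myeloid cells, and both rose. The pair was picked with earlier results of these data known, and 0.861% of all 13829 tested genes were called as higher. Tmem176b had 107 ± 4.31 TPM in siControl and 161 ± 5.41 TPM in siNCOA4 (SD, n = 3 each), a log2 difference of 0.59 (SE 0.0461, limma adjusted p = 0.00216), and Tmem176a had 12.8 ± 1.68 and 19.8 ± 0.628 TPM, a difference of 0.62 (adjusted p = 0.0194). These changes were only just past the 1.5-fold threshold, and neither gene was called after centring each library on its median, after quantile normalization, or without siControl replicate 3 or siNCOA4 replicate 3. The call on Tmem176a was also lost without siControl replicate 1 and without either of the other siNCOA4 replicates.

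Of 11 genes whose proteins are known as partners or signalling neighbours of MS4A proteins, 9 were tested and 2 rose. Over all 13829 tested genes 0.861% were called as higher, and this list was drawn up with earlier results of these data known. Clec7a, which encodes dectin-1, had 16.9 ± 1.13 TPM in siControl and 34.3 ± 1.85 TPM in siNCOA4 (SD, n = 3 each), a log2 difference of 1.00 (SE 0.0677, limma adjusted p = 0.00135). Cd74, the invariant chain of MHC class II, had 373 ± 40.3 and 647 ± 11.2 TPM, a difference of 0.80 (adjusted p = 0.00398). The kinase gene Syk (0.25, adjusted p = 0.0439) and the adaptor gene Card9 (0.25, adjusted p = 0.0451), which act after dectin-1, stayed under the fold threshold, as did the tetraspanin gene Cd9 in the other direction (-0.18, adjusted p = 0.0262). Trem2 was at 157 ± 8.29 and 163 ± 1.73 TPM, a difference of 0.06 (adjusted p = 0.526), and Vsig4 and Kit were listed at 0 TPM in every library. These 6 uncalled genes were named after their values were seen.

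Genes that IL-4 induces in macrophages, where Ms4a4a is also induced, were only partly measurable, with 8 of 18 tested. Of these 8, 4 rose, where 0.861% of all 13829 tested genes were called as higher. The list was drawn up with earlier results of these data known. By log2 difference 5 were above 0 and 3 below. Clec10a (-0.16, limma adjusted p = 0.459) and Mgl2 (-0.16, adjusted p = 0.2975) were among the 3 below. In Mgl2 every siNCOA4 library lay below every siControl library. Clec10a and Mgl2 were named after their values were seen. Tgm2, a transglutaminase, had 5.12 ± 0.340 TPM in siControl and 14.0 ± 0.766 TPM in siNCOA4 (SD, n = 3 each), a log2 difference of 1.37 (limma adjusted p = 0.00127). Mrc1, the mannose receptor, differed by 0.86 (91.8 ± 4.56 and 167 ± 1.40 TPM, adjusted p = 0.00118), the chemokine gene Ccl24 by 0.84 (105 ± 7.57 and 189 ± 12.1 TPM, adjusted p = 0.00234) and the receptor chain gene Il4ra by 0.71 (9.74 ± 1.47 and 16.2 ± 0.737 TPM, adjusted p = 0.0167). The call on Il4ra was lost without any one of the siNCOA4 replicates. The arginase gene Arg1 had 306 ± 35.7 and 339 ± 21.4 TPM (0.15, adjusted p = 0.378), and Chil3 and Retnla, strongly induced by IL-4 in many mouse macrophages, were at 0 TPM, all 3 of them named after their values were seen.

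Genes induced by glucocorticoids, the other class of inducer, showed no call in 13 tested of 16 listed (limma and limma-voom, 5 of 13 with an unadjusted p under 0.05, a count read against the 21.6% of all tested genes), with a median log2 difference of -0.04, beside 0.03 over all tested genes. The smallest adjusted p belonged to Mertk (0.48, adjusted p = 0.00965), a receptor for apoptotic cells that stayed under the fold threshold. Genes induced by interferons had no call in 20 tested of 24 listed (limma, 4 of 20 with an unadjusted p under 0.05, again against 21.6%), with a median of 0.12. By limma-voom none of 19 was called, since Isg15 had no whole rebuilt reads. Irf1 had the smallest adjusted p there (0.54, adjusted p = 0.00776), under the fold threshold except without siNCOA4 replicate 1, and was 15.1 ± 0.472 TPM in siControl and 22.2 ± 1.47 TPM in siNCOA4 (SD, n = 3 each).

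**Figure D5:**
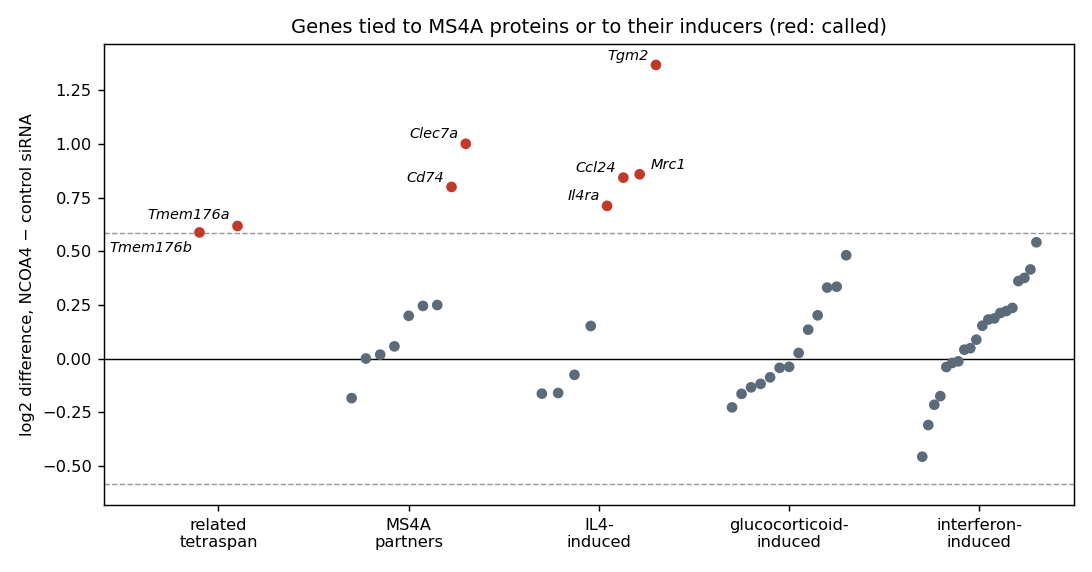
Log2 difference (siNCOA4 minus siControl) of each tested gene of 5 lists, with called genes in red and the fold threshold of 1.5 as dashed lines. The 8 called genes are all higher in siNCOA4, and the glucocorticoid- and interferon-induced lists have none.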

How the data were processed

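The authors trimmed reads with Trimmomatic 0.33 and, per the submitters' processing notes, used FastQC, HISAT2 2.1.0, featureCounts and edgeR with mm10, and deposited TPM per gene and library. The annotation behind the counts is not given in the sources used here. Symbols, positions and exon lengths came from GENCODE M21, which named 55227 of 55487 genes. Whole reads were rebuilt from TPM and these lengths and came out within 0.02 of a whole number in all libraries for 98.5% of 21096 genes above 0. Genes with a mean of at least 0.5 TPM were fitted with limma 3.58.1 (R 4.3.3) on log2(TPM + 0.5), with a trend, no block and Benjamini-Hochberg adjustment over 13829 genes, a scale that understates the change of low genes. Calls needed a fold change past 1.5 at an adjusted p below 0.05. The fit was tested on simulated data. Members and gene lists, drawn up from general knowledge, were chosen with earlier results of these data known. Genes named are the members and Ncoa4, other Ms4a genes with 3 reads or more in a library, called neighbours or else the closest 2 on each side, up to 6 called genes per list or else its smallest adjusted p, and the 5 genes most like the members. Other genes named were chosen after their values were seen. Alternatives changed the pseudocount, filter, scaling, trend, test and libraries. The summed level of B cell markers is not reported here.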

Additional observations from a re-analysis of the deposited data

How the results depend on the processing

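The log2 differences of Ms4a6b, Ms4a6c and Ms4a6d moved little (1.29 to 1.49, 1.64 to 1.91 and 1.15 to 1.31 over 16 settings each), whereas that of Ms4a4a ran from 2.48 to 5.55 with the pseudocount and that of Ms4a7 from 0.29 to 1.36, and Ms4a4c entered only with no filter (0.24). No member's direction turned, and neighbours had no call under any alternative. The count of 163 called genes (119 higher, 44 lower) was 77 to 172 with one library left out, and split 105 to 68 after median centring and 99 to 61 after quantile normalization. With the replicate number as a block it was 87. Same-numbered libraries showed no sign of deviating together (r of 0.0283, -0.0185 and 0.0229). With 3 libraries per group these values do not settle whether the numbers mark pairs. The 8 called list genes became 5 to 8 with one library left out. The 2 tetraspan genes became 0 after median centring and after quantile normalization, 1 with the replicate block and 0 to 2 with one library left out, and the interferon-induced genes 0 to 1. Of the 6 members, 3 held their siControl place in the order by TPM in siNCOA4. By reads, which favour long genes, Ms4a6b passed Ms4a6c, and 4 held it in siControl and 1 in siNCOA4. Apart from the reads, the cause of these moves was not tested. Depth limits Ms4a7, Ms4a4c and Ms4a4a, and the use of a single siRNA limits all comparisons.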
